A study of Homo sapiens with 18 samples.

Results

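The genes described here are the regulators of the G1 phase that act on D-type cyclin kinases: the D cyclins CCND1, CCND2 and CCND3, their kinases CDK4 and CDK6, the CIP/KIP inhibitors CDKN1A, CDKN1B and CDKN1C, and the INK4 inhibitors CDKN2C and CDKN2D. They were taken by name and make up 10 of the 23621 genes in the expression table. For 9 of them the level was high enough to be tested among 12771 genes; CDK6 was not. The data are 18 RNA-seq libraries of GIST-T1, a single human cell line from a gastrointestinal stromal tumor that depends on the receptor tyrosine kinase KIT. Groups of 3 libraries received the solvent DMSO, imatinib for 6 h, JQ1 for 6 h, imatinib for 24 h, JQ1 for 24 h, or imatinib and JQ1 together for 24 h. Each drug was given at 500 nM, and the labels state no time for the DMSO group. Imatinib inhibits the kinase activity of KIT, and JQ1 competes with acetylated histones for the bromodomains of BET proteins. Nothing in the labels tells if libraries of a group came from different cultures, so every p-value reflects the spread among libraries alone.

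D-type cyclins are made in response to growth factor signals, bind CDK4 or CDK6 and direct these kinases to the retinoblastoma protein, whose phosphorylation releases E2F transcription factors and lets the cell enter S phase. INK4 proteins bind CDK4 and CDK6 directly and keep cyclins away, while CIP/KIP proteins bind the assembled cyclin and kinase complexes and block cyclin E and CDK2 in particular. In cells driven by a receptor kinase, cyclin D1 is a common end point of MAP kinase signaling, and the CIP/KIP protein p27, the product of CDKN1B, is known to accumulate when such cells leave the cycle. The series concerns control of KIT expression by enhancers and BET proteins, and these genes report on how the proliferation machinery of the line stood under each drug.

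Levels are FPKM, by name fragments per kilobase of transcript relative to library size, but they are used on the scale of the deposited table. That scale does not set libraries to an equal size, as the summed FPKM of genes ran from 286566 to 2463615. RNA from counted cells carried ERCC spike-in transcripts. The summed FPKM of the spike-ins lay between 6505.1 and 6947.6 in the 18 libraries, while the summed FPKM of genes was 1.72-fold below DMSO with imatinib at 6 h, 1.77-fold with JQ1 at 6 h, 4.6-fold with imatinib at 24 h, 3.52-fold with JQ1 at 24 h and 5.8-fold with the combination. Across tested genes the median change from DMSO was -0.69, -1.0, -1.503, -1.49 and -2.05 on the log2 scale, in that order. A log2 change here is a difference of mean log2(FPKM + 1), which understates the change of genes at low FPKM. To show where a gene stood relative to the others, each change is also given after ratio rescaling (each library divided by its median gene ratio), which sets the median change near 0. In bulk libraries fewer cells of a kind and less RNA per cell cannot be told apart. Library 2 of the combination group was higher for most genes, with a summed FPKM of 499857 against 286566 and 355558 in its partners. All 7 GIST markers (KIT, ANO1, ETV1, PRKCQ, HAND1, FOXF1 and PDGFRA) reached 1 FPKM except PRKCQ in the combination group, and their sum was 1419 to 2139 FPKM in DMSO against 121.0 to 210.6 FPKM with the combination. All 3 endothelial markers stayed under 1 FPKM in every library, as did the leukocyte genes PTPRC, CD3E and LYZ and the smooth muscle genes DES and MYH11. The keratins KRT8 and KRT18 were present, with an epithelial marker sum of 415.9 to 663.1 FPKM in DMSO and 16.4 to 29.3 FPKM with the combination, while CDH1 stayed under 1 FPKM; the part of any other cell type in the results was not tested.

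In DMSO, CDK4 was the highest of the members at 405 ± 79.3 FPKM (SD, n = 3), above 97.6% of genes. The D cyclins CCND3, CCND2 and CCND1 followed at 185 ± 41.1, 129 ± 27.03 and 73.9 ± 17.5 FPKM. Of the inhibitors, CDKN1B stood at 136 ± 28.1 FPKM and CDKN2C at 97.4 ± 20.8 FPKM, both in the range of the D cyclins. CDKN2D was lower at 9.46 ± 2.05 FPKM, and CDKN1A and CDKN1C were near the filter at 2.39 ± 0.479 and 1.32 ± 0.231 FPKM. The ranges of CCND2 and CDKN1B overlapped in DMSO, although CDKN1B was the higher of the pair in each of the 3 libraries. CDK6, the second D cyclin kinase, stayed between 0.128 and 0.419 FPKM in all 18 libraries, under the filter of 1 FPKM. Its mean in DMSO was above that of 37.5% of genes.

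The promoters of 7 of the 10 members are in the RefSeq promoter table of GRCh38.p14, whose 250 bases before the transcription start are used here. The windows of 3 genes with different courses on the deposited scale are shown. CDK4 fell with JQ1 and at 24 h, CDKN1A rose with JQ1 at 6 h, and CDKN1B was the main CIP/KIP transcript. Capitals mark matches, on either strand, to the E-box CACGTG, the GC box GGGCGG and the CCAAT box CCAAT. The windows lie at chr12:57752311-57752560 on the minus strand for CDK4, chr6:36678464-36678713 on the plus strand for CDKN1A and chr12:12717118-12717367 on the plus strand for CDKN1B, and each is written in the direction of transcription.
CDK4: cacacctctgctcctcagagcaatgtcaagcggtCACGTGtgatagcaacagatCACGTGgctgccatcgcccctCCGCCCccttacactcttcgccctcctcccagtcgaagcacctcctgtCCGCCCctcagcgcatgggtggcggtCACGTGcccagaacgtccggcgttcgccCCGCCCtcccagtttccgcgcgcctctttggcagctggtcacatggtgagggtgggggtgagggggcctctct
CDKN1A: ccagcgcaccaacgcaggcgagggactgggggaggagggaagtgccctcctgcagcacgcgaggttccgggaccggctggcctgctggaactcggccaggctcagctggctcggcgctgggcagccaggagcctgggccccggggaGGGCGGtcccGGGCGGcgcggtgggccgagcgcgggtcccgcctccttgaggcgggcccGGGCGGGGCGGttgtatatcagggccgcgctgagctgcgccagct
CDKN1B: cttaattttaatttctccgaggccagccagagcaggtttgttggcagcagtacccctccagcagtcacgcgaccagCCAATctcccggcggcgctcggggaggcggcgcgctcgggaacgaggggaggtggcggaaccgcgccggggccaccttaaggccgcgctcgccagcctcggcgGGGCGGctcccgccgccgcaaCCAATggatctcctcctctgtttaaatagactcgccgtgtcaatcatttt
The CDK4 window held 3 copies of CACGTG, the E-box bound by MYC and related factors, and 3 GC boxes. Of 35116 promoter windows of the same length, 6.34% held at least 1 CACGTG and 0.0797% held 3 or more. The CDKN1A window held 4 GC boxes, the motif of SP1 factors, of which 2 overlap; 13.9% of windows held 3 or more. The CDKN1B window held 2 CCAAT boxes and 1 GC box, motifs found in 32% and 42.6% of windows. The letters TTTCCCGC, TTTGGCGC, TTTCGCGC and TTTGCCGC, searched for E2F, and TGTTTAC, searched for FOXO, were in none of the members' windows, against 2.79% and 2.98% of all windows. No window was available for CCND1, CCND2 and CDKN1C. The windows of the other members are too few to set such an absence apart from these shares. All hits given here are matches of letters, not measured binding.

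Cyclin D1 was the member lowered furthest with imatinib at 6 h, JQ1 at 24 h and the combination; with imatinib at 24 h CCND3 was. CCND1 stood at 56.9, 72.8 and 91.9 FPKM in DMSO. With imatinib at 6 h it was 13, 12.1 and 14.8 FPKM, and at 24 h 12.4, 12.4 and 12.3 FPKM. With JQ1 it was 22.9, 21.5 and 25.3 FPKM at 6 h and 3.47, 4.58 and 4.81 FPKM at 24 h. With both drugs it was 1.07, 2.07 and 1.52 FPKM. All 15 libraries of treated cells were under the lowest DMSO value, the combination was under all other groups, and imatinib gave overlapping values at both times. Group means were 5.55-fold and 5.97-fold below DMSO with imatinib at 6 h and 24 h, 3.18-fold and 17.2-fold below with JQ1, and 47.6-fold below with both. On the log2 scale CCND1 fell by 2.37 ± 0.18 (SE) with imatinib at 6 h (limma adjusted p = 3.93e-10), a change lower than that of all but 0.932% of tested genes. It fell by 1.605 ± 0.18 with JQ1 at 6 h (limma adjusted p = 4.01e-08) and by 2.46 ± 0.18 with imatinib at 24 h (limma adjusted p = 1.72e-11). The falls were 3.81 ± 0.18 with JQ1 at 24 h (limma adjusted p = 2.16e-14) and 4.87 ± 0.18 with the combination (limma adjusted p = 1.75e-16), each lower than all but 0.626% of genes. After rescaling, the changes were -1.57, -0.48, -0.77, -2.20 and -2.83, so that relative to the median gene CCND1 was called lower with imatinib at 6 h, JQ1 at 24 h and the combination.

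CCND2, the second D cyclin, was 101.3, 131.2 and 155.3 FPKM in DMSO. It was 40.95 to 48.7 FPKM with imatinib and 39.3 to 44.9 FPKM with JQ1 at 6 h, and 28.7 to 30.2 FPKM with imatinib, 22.2 to 28.9 FPKM with JQ1 and 14.7 to 28.3 FPKM with both at 24 h. No treated library reached the DMSO range. The drugs overlapped at 6 h, and JQ1 at 24 h overlapped both other 24 h groups. CCND2 fell in all 5 comparisons with DMSO, by 1.47, 1.605, 2.07, 2.29 and 2.64 on the log2 scale (imatinib 6 h, JQ1 6 h, imatinib 24 h, JQ1 24 h, combination), with SE 0.20 and limma adjusted p of at most 1.97e-06. After rescaling its changes were -0.69, -0.47, -0.36, -0.61 and -0.27 with no call, and scaling to an equal total instead put it at 0.08 with imatinib at 24 h.

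CCND3, the most abundant D cyclin in DMSO, had a course of its own at 24 h. It was 144.3, 184.9 and 226.5 FPKM in DMSO. Imatinib gave 48.5, 51.9 and 57.95 FPKM at 6 h and 16.5, 17.0 and 16.6 FPKM at 24 h. JQ1 gave 76.5, 70.1 and 83.5 FPKM at 6 h and 29.0, 34.6 and 39.2 FPKM at 24 h, and both drugs gave 13.2, 24.9 and 14.9 FPKM. The imatinib libraries lay below the JQ1 libraries at each time, and the combination libraries lay around those of imatinib alone. CCND3 fell by 1.77 ± 0.20, 1.24 ± 0.20, 3.37 ± 0.20, 2.39 ± 0.20 and 3.35 ± 0.20 in the same order, with limma adjusted p of at most 6.98e-06. The fall with imatinib at 24 h was 11.1-fold in means and lower than all but 2.04% of genes. It was the only change of CCND3 against DMSO called after ratio rescaling (-1.66), where the others were -0.99, -0.10, -0.70 and -0.97. Scaling to an equal total also gave a call with imatinib at 6 h (-1.004). With MIR1244 left out of that total, imatinib at 6 h (-1.033) and both drugs (-1.119) were called too.

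CDK4, the D cyclin kinase whose transcript was above the filter, was 321.9, 414.0 and 479.7 FPKM in DMSO. It was 220.2 to 239.6 FPKM with imatinib and 153.1 to 177.9 FPKM with JQ1 at 6 h. Imatinib for 24 h gave 82.1 to 84.5 FPKM, JQ1 for 24 h 76.5 to 100.9 FPKM, and the combination 34.5, 66.0 and 42.7 FPKM. The DMSO libraries were the highest and the combination libraries the lowest, and those of the 2 single drugs at 24 h overlapped. CDK4 did not pass the fold minimum with imatinib at 6 h (log2 change -0.80 ± 0.20, limma adjusted p = 0.00102). It fell by 1.26, 2.25, 2.19 and 3.09 with JQ1 at 6 h, imatinib at 24 h, JQ1 at 24 h and the combination (SE 0.20, limma adjusted p of at most 4.61e-06). At 24 h only 17.4%, 14.8% and 11.6% of genes were lowered further than CDK4 with imatinib, JQ1 and both. After rescaling the 6 h changes were -0.03 with imatinib and -0.11 with JQ1 (limma adjusted p = 0.618 and 0.0346), and the 24 h changes were -0.52, -0.49 and -0.68 with limma adjusted p of at most 3.78e-08, all under the fold minimum. TSPAN31, which overlaps CDK4 on the other strand in the GENCODE annotation, stood at 18.6 ± 3.88 FPKM in DMSO and 12.9 ± 3.97 FPKM with both drugs. Likewise ORAOV1 (LTO1) overlaps CCND1 on the other strand and stood at 14.2 ± 3.22 and 1.91 ± 0.739 FPKM. No source used here states whether reads were assigned by strand, so shared reads of these pairs cannot be told apart. CDK6 was 0.326 to 0.419 FPKM with imatinib at 24 h and 0.128 to 0.309 FPKM in the other groups, all too low to be tested.

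**Figure D1:**
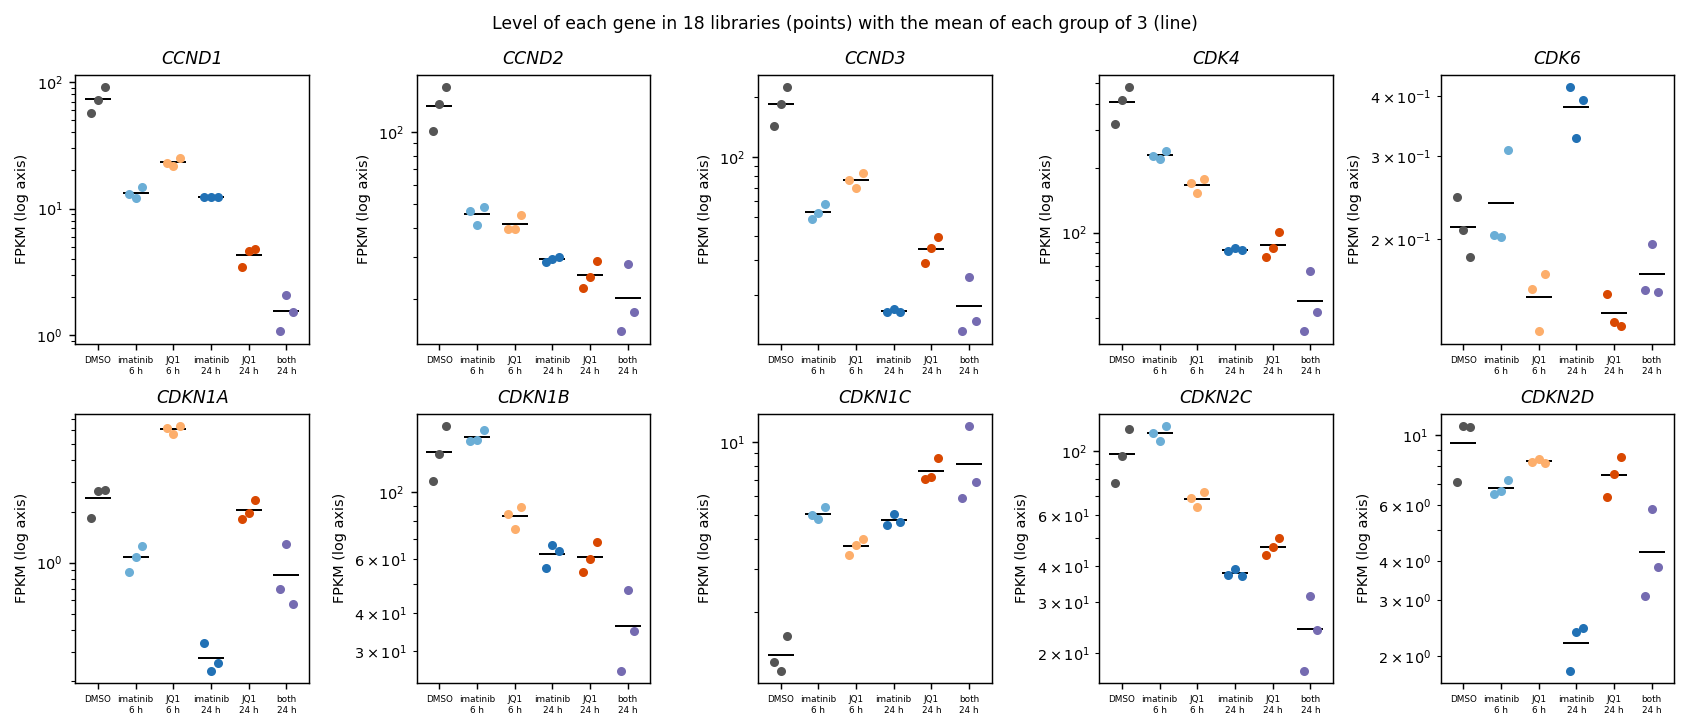
Level of each of the 10 genes in FPKM (vertical log axes, a separate range for each gene) in the 18 libraries. Points are libraries and lines are means of the groups of 3; CCND1 runs from 91.9 FPKM in a DMSO library to 1.07 FPKM in a combination library, while CDKN1C is lowest in DMSO.

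CDKN1C, which encodes the CIP/KIP inhibitor p57, was the member that rose with every treatment. It was 1.24, 1.15 and 1.58 FPKM in DMSO. Imatinib gave 5.03, 4.82 and 5.39 FPKM at 6 h and 4.56, 5.08 and 4.69 FPKM at 24 h. JQ1 gave 3.43, 3.78 and 3.98 FPKM at 6 h and 7.01, 7.18 and 8.56 FPKM at 24 h, and both drugs gave 5.90, 11.6 and 6.86 FPKM. Every treated library was above every DMSO library, on a scale where the summed expression went down. Group means were 3.84-fold and 3.61-fold of DMSO with imatinib, 2.82-fold and 5.73-fold with JQ1, and 6.15-fold with both. CDKN1C rose by 1.39 ± 0.17, 1.03 ± 0.17, 1.32 ± 0.17, 1.89 ± 0.17 and 1.93 ± 0.17 on the log2 scale (imatinib 6 h, JQ1 6 h, imatinib 24 h, JQ1 24 h, combination), with limma adjusted p of at most 7.47e-06. Its change was higher than that of 99.7%, 99.2%, 99.6%, 99.8% and 99.9% of tested genes, and after rescaling the changes were 1.56, 1.501, 2.28, 2.84 and 3.56, all called. The call with JQ1 at 6 h is near the fold minimum: the change was 0.97 without DMSO library 2 and 0.99 without JQ1 6 h library 3.

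CDKN1A, which encodes the inhibitor p21, separated the 2 drugs. It was 1.84, 2.66 and 2.68 FPKM in DMSO. With imatinib it was 0.885, 1.07 and 1.26 FPKM at 6 h and 0.337, 0.232 and 0.257 FPKM at 24 h. With JQ1 it was 6.22, 5.73 and 6.37 FPKM at 6 h and 1.80, 1.97 and 2.34 FPKM at 24 h, and with both drugs it was 0.697, 1.29 and 0.571 FPKM. The JQ1 6 h libraries were above all others, the JQ1 24 h libraries overlapped DMSO, and the imatinib libraries were below DMSO at both times. CDKN1A rose by 1.08 ± 0.14 with JQ1 at 6 h (limma adjusted p = 2.57e-07), 2.55-fold in means and above 99.3% of genes, and by 1.73 after rescaling; without DMSO library 1 the change was 0.95, under the fold minimum. It fell by 1.40 ± 0.14 with imatinib at 24 h (limma adjusted p = 1.7e-09), 8.69-fold in means, but was not called after rescaling (-0.51). That fold rests on imatinib values of 0.232 to 0.337 FPKM, under the filter of 1 FPKM. With imatinib at 6 h the change was -0.70 (limma adjusted p = 0.000108), under the fold minimum. With JQ1 at 24 h it was -0.16 (limma adjusted p = 0.271), against 0.91 after rescaling and 1.04 on an equal total. With the combination it was -0.88 (limma adjusted p = 1.66e-06) against 0.50 after rescaling, and it passed the minimum at -1.005 without DMSO library 1 and -1.04 without combination library 2.

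CDKN1B, the main CIP/KIP transcript, did not take part in the early decline with imatinib. It was 108.8, 133.8 and 164.8 FPKM in DMSO and 147.1, 148.6 and 159.8 FPKM with imatinib at 6 h, where the ranges overlapped. JQ1 gave 84.6, 75.8 and 89.4 FPKM at 6 h. At 24 h the values were 56.25, 67.2 and 64.1 FPKM with imatinib, 54.7, 60.15 and 68.6 FPKM with JQ1, and 25.85, 47.5 and 35.0 FPKM with both. These 24 h libraries lay below every DMSO library, and those of the single drugs overlapped. The change with imatinib at 6 h was 0.18 ± 0.19 (limma adjusted p = 0.382), above that of 96.8% of genes, and 0.95 after rescaling, just short of the fold minimum. With JQ1 at 6 h it was -0.68 (limma adjusted p = 0.00215), against 0.45 after rescaling. CDKN1B fell by 1.09, 1.12 and 1.90 with imatinib, JQ1 and both at 24 h (SE 0.19, limma adjusted p of at most 1.35e-05), while after rescaling it stood above DMSO in all 3, at 0.63, 0.56 and 0.495, with no call. Without DMSO library 3 the changes with the single drugs were -0.94 and -0.975, under the fold minimum.

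CDKN2C, the INK4 inhibitor p18, followed CDKN1B. It was 77.3, 96.05 and 118.8 FPKM in DMSO and 115.6, 107.8 and 121.7 FPKM with imatinib at 6 h. JQ1 gave 63.8 to 72.3 FPKM at 6 h, and at 24 h the ranges were 36.8 to 38.95 FPKM with imatinib, 43.5 to 49.8 FPKM with JQ1 and 17.4 to 31.4 FPKM with both. Imatinib libraries at 6 h overlapped DMSO, and all 24 h libraries lay below it. Its change with imatinib at 6 h was 0.26 ± 0.18 (limma adjusted p = 0.194), above 97.4% of genes, and was called higher after rescaling (1.02). With JQ1 at 6 h it was -0.49 (limma adjusted p = 0.0162) against 0.64 after rescaling. At 24 h CDKN2C fell by 1.33, 1.03 and 1.98 with imatinib, JQ1 and both (SE 0.18, limma adjusted p of at most 1.68e-05), but stood above DMSO after rescaling, at 0.38, 0.65 and 0.40 with no call. The fall with JQ1 was -0.87 without DMSO library 3 and -0.98 without the unnumbered JQ1 24 h library, under the fold minimum.

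CDKN2D, the INK4 inhibitor p19, differed between the drugs at 24 h. It was 7.10, 10.7 and 10.6 FPKM in DMSO, 6.54 to 7.21 FPKM with imatinib and 8.18 to 8.42 FPKM with JQ1 at 6 h. At 24 h it was 1.795, 2.37 and 2.44 FPKM with imatinib, 6.395, 7.56 and 8.53 FPKM with JQ1, and 3.09, 5.86 and 3.825 FPKM with both. JQ1 libraries overlapped DMSO at both times, and the imatinib 24 h libraries were the lowest of all. CDKN2D fell by 1.69 ± 0.18 with imatinib at 24 h (limma adjusted p = 5.98e-09), near the median gene (-0.27 after rescaling). It fell by 1.01 ± 0.18 with both drugs (limma adjusted p = 1.08e-05), yet was called higher after rescaling (1.07), and the fall missed the fold minimum without DMSO library 2 (-0.92), DMSO library 3 (-0.92), combination library 1 (-0.84) or combination library 3 (-0.96). With JQ1 at 24 h the change was -0.29 (limma adjusted p = 0.121) and was called higher after rescaling (1.18). The 6 h changes were -0.41 (limma adjusted p = 0.0393) with imatinib and -0.16 (limma adjusted p = 0.399) with JQ1, both under the fold minimum and at 0.26 and 0.82 after rescaling.

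**Figure D2:**
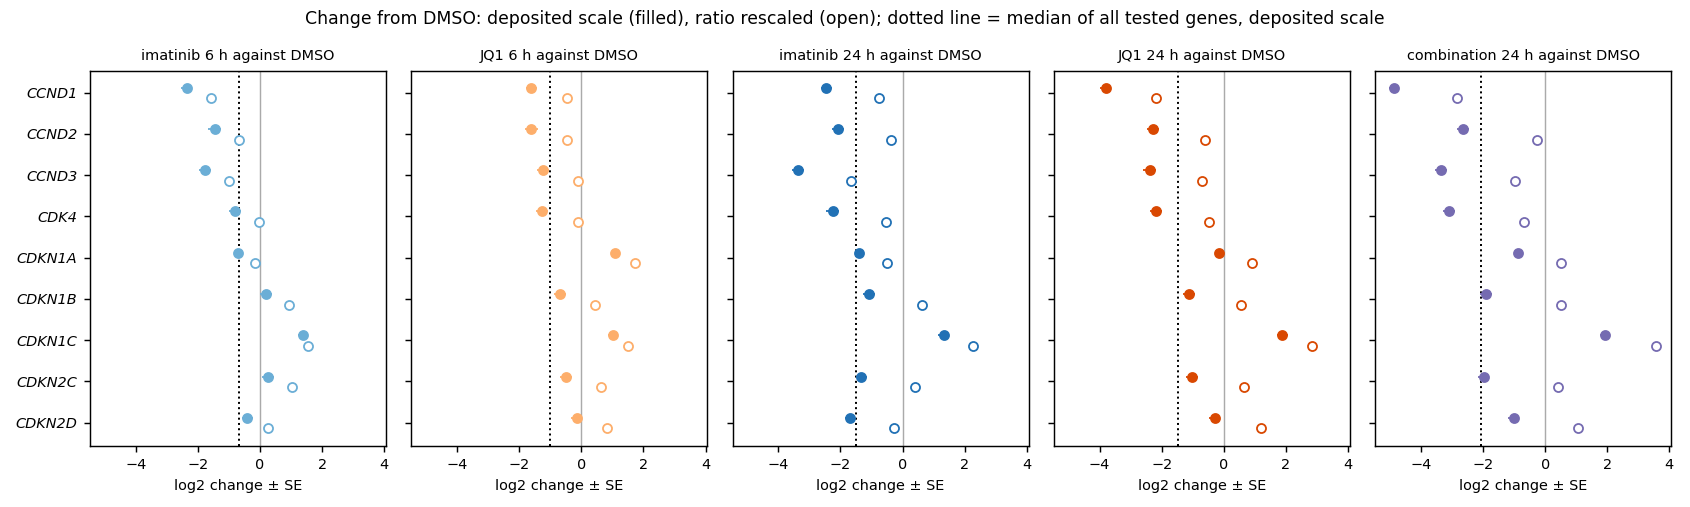
Log2 change against DMSO (horizontal axes) of the 9 tested genes in the 5 comparisons. Filled points are changes on the deposited scale with SE, open points are changes after ratio rescaling, and the dotted line is the median of all tested genes on the deposited scale. CDKN1C lies right of 0 on both scales in every panel. At 24 h CDKN1B, CDKN2C and, with JQ1 or both drugs, CDKN1A and CDKN2D move from left of 0 to right of it.

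Counted together, 3 of the 9 tested members were lower and 1 was higher with imatinib at 6 h, where 20.0% of all tested genes were lower and 0.384% higher. With JQ1 at 6 h 4 were lower and 2 higher, against 49.8% and 0.642% of all genes. At 24 h 8 were lower and 1 higher with imatinib (72.1% and 0.642% of genes), 6 and 1 with JQ1 (75.3% and 0.399%), and 7 and 1 with both drugs (86.0% and 0.235%). The counts of lower members at 24 h are thus of the kind most genes show. After rescaling, the members called lower were CCND1 with imatinib at 6 h, CCND3 with imatinib at 24 h, and CCND1 with JQ1 at 24 h and with both, 1 of 9 each, where 2.08%, 8.72%, 6.47% and 10.1% of genes were lower. With JQ1 at 6 h 0 members were lower after rescaling, against 2.57% of genes. Members called higher after rescaling were CDKN1C and CDKN2C with imatinib at 6 h (1.22% of genes), CDKN1A and CDKN1C with JQ1 at 6 h (2.47%), CDKN1C with imatinib at 24 h (8.8%), and CDKN1C and CDKN2D with JQ1 (5.25%) and with both (9.17%) at 24 h. In these 5 comparisons each member called higher was an inhibitor, and each member called lower after rescaling was a D cyclin. On the deposited scale CDK4 and inhibitors were also called lower at 24 h. After rescaling, 1 of 9 lower at 24 h, and 1 of 9 higher with imatinib at 24 h, are near the shares of all genes. The median log2 change of the 9 was -0.70, -0.68, -1.69, -1.12 and -1.98, beside -0.69, -1.0, -1.503, -1.49 and -2.05 for all genes.

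The drugs were then set against each other. At 6 h 1 member was higher and 0 were lower with JQ1 than with imatinib, where 1.95% and 9.36% of all genes were: CDKN1A, by 1.78 ± 0.14 (limma adjusted p = 7.83e-10), and by 1.89 after rescaling. CCND1 was 0.76 higher with JQ1 (limma adjusted p = 0.00117), under the fold minimum, and was called after rescaling (1.095), where 2 members were higher and 0 lower beside 3.43% and 3.3% of genes. At 24 h 2 members were higher and 1 lower with JQ1 (3.59% and 4.88% of genes): CDKN1A by 1.25 ± 0.14 (limma adjusted p = 1.72e-07) and CDKN2D by 1.41 ± 0.18 (limma adjusted p = 1.42e-06) above, and CCND1 by -1.35 ± 0.18 (limma adjusted p = 2.46e-06). All 3 were also called after rescaling, at 1.42, 1.45 and -1.42, where 3.57% of genes were higher and 6.09% lower. CCND3 was 0.985 higher with JQ1 at 24 h (limma adjusted p = 0.00048), and passed the minimum at 1.097 without the unnumbered JQ1 library. The other tested members differed between the drugs at 24 h by -0.22 to 0.57, with no call.

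Adding JQ1 to imatinib at 24 h lowered 1 member and raised 0, where 14.5% and 0.423% of genes were called. CCND1 was 2.41 ± 0.18 lower with the combination than with imatinib alone (limma adjusted p = 2.77e-10), and 2.05 lower after rescaling, where 5.58% of genes were lower. Leaving out combination library 2, which had the highest sum of its group, added CDK4 (-1.09) and CDKN1B (-1.03). After rescaling CDKN1A (1.01), CDKN1C (1.28) and CDKN2D (1.34) were called higher with the combination, beside 2.37% of genes, against 0.52, 0.61 and 0.69 on the deposited scale. Adding imatinib to JQ1 lowered 1 member and raised 0 (7.35% and 0.047% of genes). CCND1 was 1.06 ± 0.18 lower than with JQ1 alone (limma adjusted p = 0.000102) and 0.63 lower after rescaling, and the difference was -0.99 without JQ1 24 h library 3 and -0.92 without combination library 1. Without combination library 2 the lower members were CCND1, CCND3 (-1.22), CDK4 (-1.16) and CDKN2C (-1.15), and without the unnumbered JQ1 library CCND3 (-1.07) joined CCND1. For fits without a library no share of all genes is given, so the added members cannot be told from a shift of the whole group. After rescaling 0 members were lower and 0 higher than with JQ1, beside 0.814% and 0.227% of genes.

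Between 6 h and 24 h of imatinib 5 members fell further and 0 rose, where 33.4% and 0.501% of genes did. They were CCND3 (-1.60), CDK4 (-1.45), CDKN1B (-1.27), CDKN2C (-1.58) and CDKN2D (-1.29), with limma adjusted p of at most 4.94e-06, and none was called after rescaling, where they lay between -0.67 and -0.32 and 4.38% of genes were lower and 3.98% higher. CCND1 and CDKN1C changed by -0.09 and -0.07 on the deposited scale, with limma adjusted p = 0.629 and 0.688. Between 6 h and 24 h of JQ1 3 members fell and 0 rose (14.2% and 0.509% of genes). CCND1 fell by 2.20 ± 0.18 (limma adjusted p = 3.02e-09) and by 1.72 after rescaling, CDKN1A by 1.23 ± 0.14 (limma adjusted p = 2.27e-07) and CCND3 by 1.15 ± 0.20 (limma adjusted p = 6.46e-05), the last 2 not called after rescaling. CDKN1C was 0.86 higher at 24 h (limma adjusted p = 0.000195), and 1.34 higher with a call after rescaling, so that 1 member was lower and 1 higher there beside 3.45% and 2.66% of genes. The difference of CDK4 was -0.93, and -1.04 without JQ1 24 h library 3, which passes the minimum.

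The interaction at 24 h is the change with both drugs minus the sum of the changes with each, all against DMSO; a positive value means that the combination lay less far below DMSO than the sum. For 4 members it was called positive and for 1 negative, where 46.8% and 0.932% of genes were. CCND3 had 2.41 ± 0.28 (limma adjusted p = 4.13e-07), CCND2 1.72 ± 0.28, CCND1 1.40 ± 0.25 and CDK4 1.35 ± 0.28 (limma adjusted p of at most 0.0002). CDKN1C had -1.27 ± 0.24 (limma adjusted p = 7.2e-05), so that its rise with both drugs was smaller than the sum of its rises. After rescaling CCND3 (1.40) and CDKN1C (-1.56) kept their calls, 1 in each direction beside 4.88% and 5.83% of genes, while CCND1 and CDK4 were at 0.15 and 0.34 and turned negative on an equal total. CDKN2D had 0.97 ± 0.25 (limma adjusted p = 0.00145), under the fold minimum, and passed it without any of 6 single libraries.

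Shares and ratios within a library do not change when all its values are multiplied by 1 factor, and they were chosen after the levels had been seen. The normalization of the deposited values is not stated, so it is not known whether it was of that kind. Each was compared with DMSO by a two-sided exact permutation test of 3 against 3 libraries, for which 0.1 is the smallest p. CCND1 made up 19.0% ± 0.366 (SD, n = 3) of the summed D cyclin FPKM in DMSO, 11.9% ± 0.335 with imatinib and 16.4% ± 0.049 with JQ1 at 6 h. At 24 h imatinib gave a share of 21.1% ± 0.383, JQ1 6.70% ± 0.412 and the combination 3.96% ± 0.410. The libraries of each treated group lay wholly to 1 side of DMSO, above it with imatinib at 24 h and below it in the other 4 groups. CCND3 kept 47.3% ± 2.37 with imatinib at 6 h against 47.7% ± 0.139 in DMSO (exact p = 0.8), and made up 28.5% ± 0.423 with imatinib at 24 h and 53.6% ± 0.533 with JQ1. CCND2 had a share of 33.3% ± 0.492 in DMSO, 50.4% ± 0.684 with imatinib at 24 h and 51.35% ± 0.589 with both (exact p = 0.1 each). Imatinib at 24 h thus left CCND2 as the leading D cyclin transcript, whereas JQ1 left CCND3 in that place.

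Among the CIP/KIP transcripts, CDKN1B made up 97.3% ± 0.136 in DMSO and 80.25% ± 2.01 with both drugs. The share of CDKN1C was 0.960% ± 0.140 in DMSO, 3.21% ± 0.084 and 7.09% ± 0.340 with imatinib at 6 h and 24 h, 4.02% ± 0.394 and 10.7% ± 0.349 with JQ1, and 17.9% ± 1.57 with both. No treated library overlapped DMSO, and the combination libraries held the highest shares (exact p = 0.1 for each group against DMSO). The share of CDKN1A was 1.72% ± 0.185 in DMSO, 0.677% ± 0.091 and 0.414% ± 0.121 with imatinib, 6.56% ± 0.163 and 2.87% ± 0.062 with JQ1, and 1.875% ± 0.458 with both, where it overlapped DMSO (exact p = 0.8). CDKN2D was set against the summed FPKM of CDKN2C and CDKN2D, which leaves out other INK4 genes such as CDKN2A (218 FPKM in DMSO). Its share of that sum was 8.875% ± 1.003 in DMSO, 5.59% ± 0.228 and 5.52% ± 0.838 with imatinib at 6 h and 24 h, 10.8% ± 0.751 and 13.8% ± 0.910 with JQ1, and 14.8% ± 1.02 with both. All treated libraries were outside the DMSO range, below it with imatinib and above it with JQ1 or both (exact p = 0.1 for each group).

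**Figure D3:**
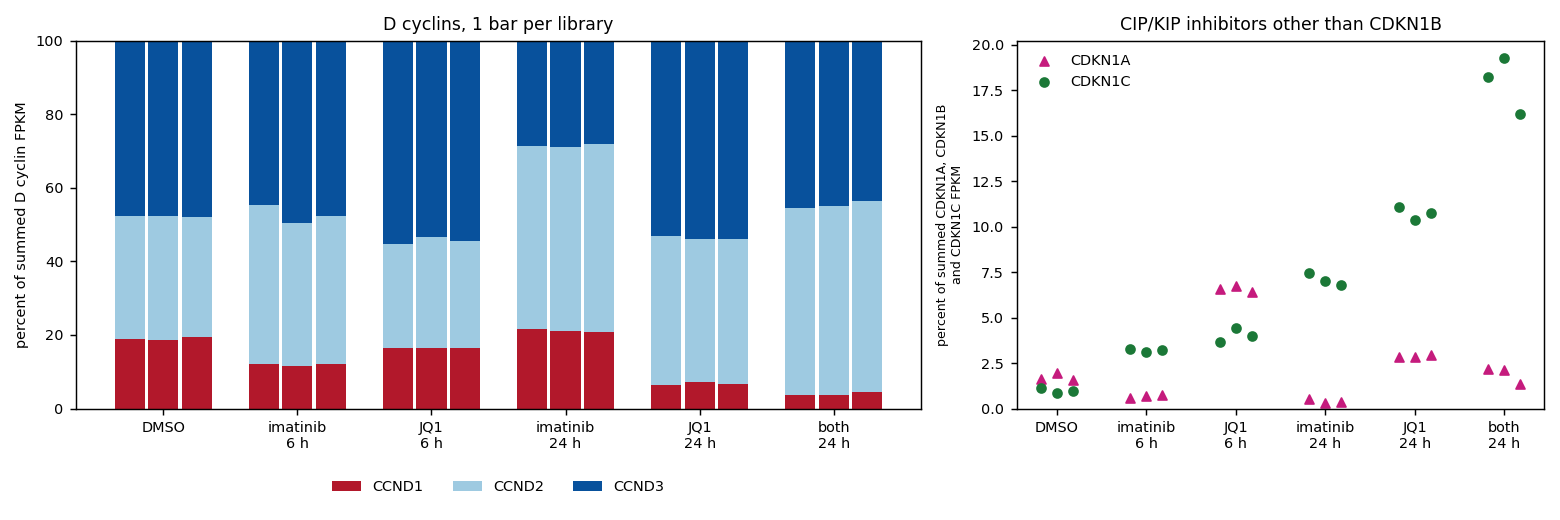
Left, share of CCND1, CCND2 and CCND3 in their summed FPKM (percent, stacked), 1 bar per library; right, share of CDKN1A and CDKN1C in the summed CIP/KIP FPKM (percent), 1 point per library. CCND1 takes 19.0% in DMSO and 3.96% with both drugs, and CDKN1C goes from 0.960% to 17.9%.

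CDKN1B transcripts relative to those of the D cyclins were higher in each treated group than in DMSO. CDKN1B FPKM over the summed D cyclin FPKM was 0.3505 ± 0.008 in DMSO and 1.36 ± 0.051 with imatinib at 6 h, the highest of the groups. It was 0.590 ± 0.018 with JQ1 at 6 h, and 1.07 ± 0.082, 0.960 ± 0.035 and 0.9255 ± 0.086 with imatinib, JQ1 and both at 24 h. No treated library overlapped DMSO (exact p = 0.1 for each group), and the 3 groups at 24 h overlapped each other. CDKN1B over CCND1 was 1.85 ± 0.059 in DMSO, 11.5 ± 0.755 and 5.05 ± 0.466 with imatinib at 6 h and 24 h, 3.59 ± 0.099 and 14.4 ± 1.31 with JQ1, and 23.4 ± 0.715 with both. CDKN2C over its target CDK4 was 0.240 ± 0.008 in DMSO and between 0.408 ± 0.008 (JQ1 at 6 h) and 0.5375 ± 0.039 (JQ1 at 24 h) in the treated groups. CDK4 over the summed D cyclins was 1.05 ± 0.030 in DMSO and 2.055 ± 0.072 with imatinib at 6 h, where the cyclins fell and CDK4 was not called. In the other treated groups it was between 1.18 ± 0.038 (JQ1 at 6 h) and 1.42 ± 0.020 (imatinib at 24 h). A higher ratio over the D cyclins than in DMSO was thus not limited to an inhibitor. These are ratios of transcript levels, and protein was not measured.

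**Figure D4:**
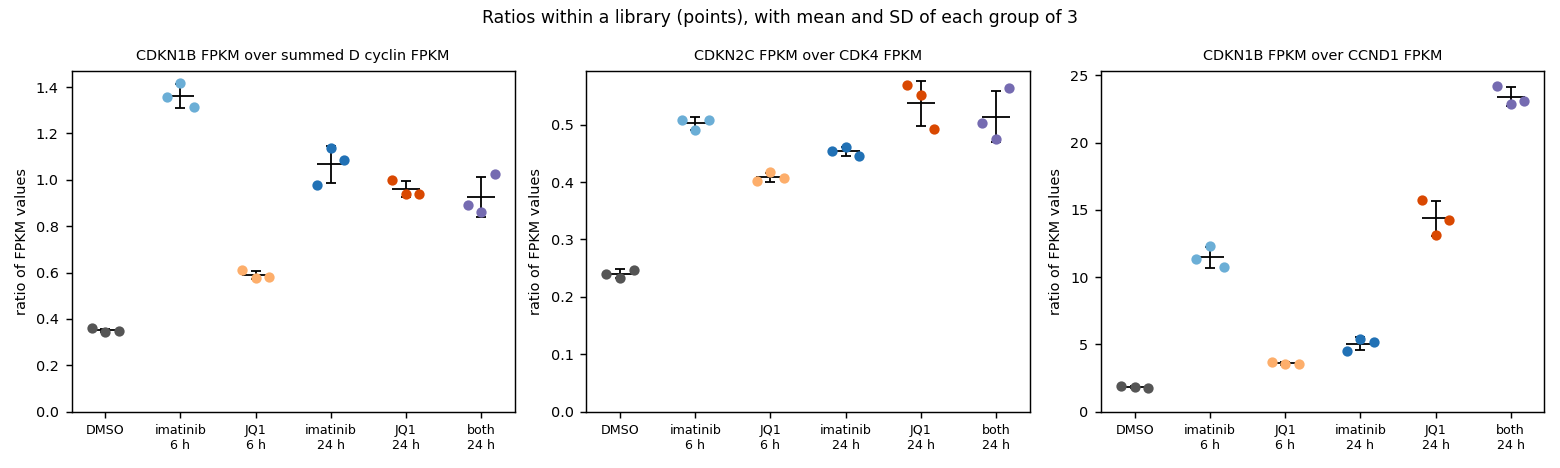
Ratios of FPKM values within a library (vertical axes from 0) for CDKN1B over summed D cyclins, CDKN2C over CDK4 and CDKN1B over CCND1; points are libraries, with mean and SD of each group of 3. In all 3 panels the DMSO libraries are the lowest, and for CDKN1B over CCND1 the combination is highest at 23.4.

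The other genes of the pathway were counted in lists beside the same comparisons. Of all tested genes, 20.0%, 49.8%, 72.1%, 75.3% and 86.0% were lower with imatinib 6 h, JQ1 6 h, imatinib 24 h, JQ1 24 h and both. After rescaling these shares were 2.08%, 2.57%, 8.72%, 6.47% and 10.1%. Of the 9 G1/S cyclins and kinases, 4, 3, 9, 9 and 9 fell with imatinib 6 h, JQ1 6 h, imatinib 24 h, JQ1 24 h and both, and after rescaling 0, 0, 5, 1 and 4 were called lower. CCNE2 and CCNE1, the E cyclins that act with CDK2 after the D cyclins, fell by 4.23 and 3.27 with imatinib at 24 h, with changes of -2.52 and -2.445 with JQ1. CDC25A, the phosphatase that activates CDK2, changed by -3.54 and -2.92, and CDK2 itself by -3.004 and -2.02. The list median was -3.004 with imatinib at 24 h and -2.02 with JQ1, beside -1.503 and -1.49 for all genes.

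Of the 13 RB and E2F genes, 4, 12, 13, 13 and 13 fell, and 0, 2, 4, 3 and 8 after rescaling. The shares of all tested genes were 20.0%, 49.8%, 72.1%, 75.3% and 86.0%, and 2.08%, 2.57%, 8.72%, 6.47% and 10.1% after rescaling. E2F1 and E2F2, activating E2F factors, fell by 3.26 and 3.29 with imatinib at 24 h. RB1, the target of the D cyclin kinases, fell by 2.53 with both drugs but stood at -0.20 after rescaling. Of the 12 DREAM complex genes, which repress cell cycle genes in resting cells or, with MYBL2, activate them, 4, 9, 12, 11 and 12 fell and 0, 1, 2, 3 and 5 after rescaling; MYBL2 changed by -4.38 with imatinib at 24 h and -2.765 with JQ1. Of the 14 proliferation markers 1, 10, 14, 14 and 14 fell, and 0, 0, 13, 0 and 7 after rescaling. MKI67 fell by 3.71 and RRM2, a subunit of ribonucleotide reductase, by 5.12 with imatinib at 24 h, against -2.26 and -2.65 with JQ1.

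Of the 11 genes for turnover of p27 and cyclins, 2, 4, 7, 8 and 9 fell, and after rescaling 0, 0, 1, 0 and 1 were lower and 0, 0, 2, 1 and 2 higher. Of all tested genes, 20.0%, 49.8%, 72.1%, 75.3% and 86.0% were lower, so the 24 h counts of this list are near the background. After rescaling 2.08%, 2.57%, 8.72%, 6.47% and 10.1% of all genes were lower and 1.22%, 2.47%, 8.8%, 5.25% and 9.17% higher. SKP2, the ubiquitin ligase subunit that directs p27 to degradation, fell in all 5 comparisons, by 1.09, 1.47, 2.95, 2.64 and 3.57, and was called after rescaling with imatinib at 24 h (-1.24) and both drugs (-1.20). FBXO31, a ligase subunit for cyclin D1, was not called on the deposited scale and was called higher after rescaling at 24 h with imatinib (1.09), JQ1 (1.34) and both (1.65). Of 14 upstream transcription factors 12 were tested, and 4, 6, 6, 7 and 7 fell; after rescaling 2, 0, 2, 2 and 2 were lower and 2, 1, 4, 3 and 5 higher. FOXO4 and FOXO3, known activators of CDKN1B, changed by 0.78 and 0.39 with imatinib at 6 h, under the fold minimum, and by 1.255 and 1.07 after rescaling, both called. FOXO1 stood near the filter, at 0.910 ± 0.149 FPKM in DMSO and 0.993 ± 0.221 FPKM with imatinib at 6 h. After rescaling, mean FOXO4 was 5.14 with imatinib at 6 h and 10.39 at 24 h, while mean CDKN1B was 105.1 and 84.14. A link of these factors to CDKN1B was not tested. MYC, a repressor of CDKN1A, fell by 1.095 and 1.72 with JQ1 at 6 h and 24 h and by 1.69 with both, and was not called after rescaling. Of the 10 other INK4 genes and CDK relatives 0, 3, 7, 7 and 7 fell and CCNG2, a cyclin linked to cell cycle exit, rose by 1.25 with imatinib at 6 h; after rescaling 0 were lower and 1, 2, 2, 3 and 4 higher. The INK4 gene CDKN2A stood at 218 ± 49.4 FPKM in DMSO and fell by 1.90, 1.59 and 2.59 with imatinib, JQ1 and both at 24 h, with changes of -0.17, 0.11 and -0.18 after rescaling. KIT itself fell by 1.75, 2.59, 2.13, 3.86 and 5.22 in the 5 comparisons. In each list above, the calls come from the limma fit over all tested genes with Benjamini-Hochberg adjustment, and the background shares are those printed for the members.

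**Figure D5:**
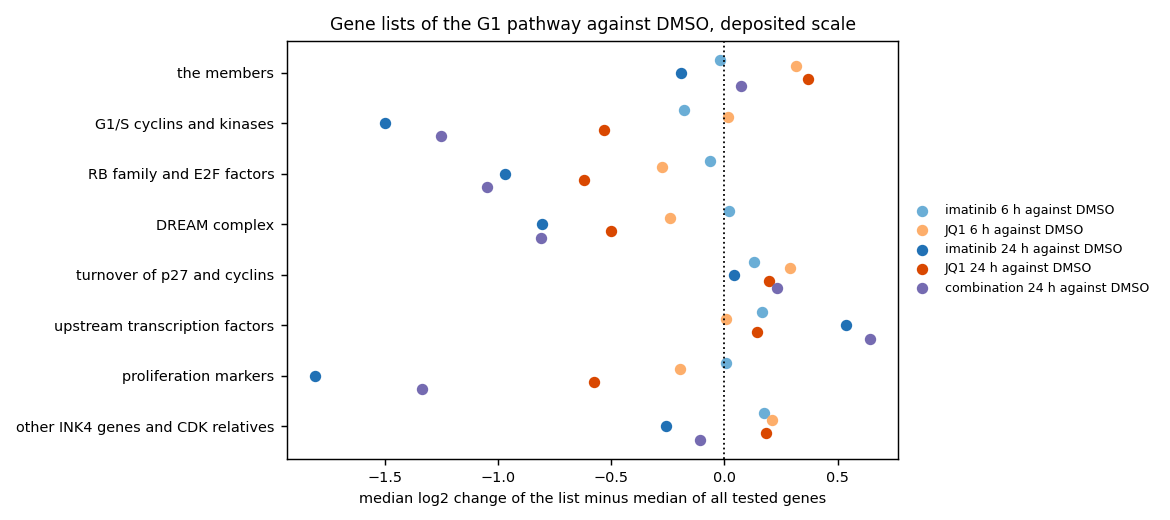
Median log2 change of each list against DMSO minus the median of all tested genes in the same comparison (horizontal axis, deposited scale), 1 point per comparison. Points left of the dotted line are lists whose median lay below that of all genes; at 24 h the G1/S cyclins and kinases, RB and E2F, DREAM and proliferation lists lie to the left, while the members lie on both sides of it.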

How the data were processed

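RNA was measured in 18 GIST-T1 libraries, in 6 groups of 3. Per the labels' protocols, RNA was normalized to cell count before ERCC spike-ins were added, and TruSeq stranded mRNA libraries were read as single ends of 75 bases. The authors deposited one table of FPKM values; the submitters' processing notes name STAR, Cufflinks and hg19 without versions, and the normalization step is not stated there or in the labels. Depth in reads is unknown, and 0 columns were left without a group. One JQ1 24 h column carries a number its titles lack and was used as an unnumbered library.

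Of 23713 rows, 92 were spike-ins. A gene was kept if 3 or more libraries reached 1 FPKM; kept genes were fitted with limma 3.58.1 (R 4.3.3) on log2(FPKM + 1), one mean per group, with an intensity trend (12 residual degrees of freedom). The two-sided p was adjusted by Benjamini-Hochberg over all tested genes within each of 12 comparisons. A call needs an adjusted p below 0.05 and a log2 change of at least 1 in size. Fold changes of means are on the FPKM scale. For ratio rescaling, the value of each tested gene was set against its geometric mean over the 18 libraries, and the median of these ratios was the divisor of the library. The fit was tested on simulated data.

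The members and lists were chosen with earlier results of these data known. Named genes are the members, KIT, CCNE1, CCNE2, CDK2, RB1, E2F1, MKI67 and SKP2, and up to 4 called genes of largest size from a list. FBXO31, FOXO1, FOXO3, FOXO4, MYC, CDKN2A, TSPAN31 and ORAOV1 were named after their values were seen, and so were the shares and ratios. The alternatives tried were no filter on low values, a mean of 5 FPKM or more, pseudocounts of 0.1 and 0.01, ratio and total rescaling, no fold minimum, array weights, a replicate block, fits of the compared groups only and leaving out each library. Promoters are from the RefSeq table of GRCh38.p14, another build than that of the expression files.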

Additional observations from a re-analysis of the deposited data

Results flagged for a closer look

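The effect of a drug at 24 h differed with the presence of the other drug for 5 members, by the interaction term of the limma fit. The interaction was 1.40 for CCND1, 1.72 for CCND2, 2.41 for CCND3 and 1.35 for CDK4 on the log2 scale, and -1.27 for CDKN1C. The interaction was called positive for 46.8% of all tested genes and negative for 0.932%, so the share of positive members, 4 of 9, is near that of all genes. After ratio rescaling the calls of CCND3 and CDKN1C remained.

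For 3 members the changes at 6 h and 24 h of the same drug lay on opposite sides of DMSO and differed by the test between the times, but in each case 1 of the 2 was not distinguishable from DMSO. With imatinib, CDKN1B went from 0.18 to -1.09 and CDKN2C from 0.26 to -1.33, differences of -1.27 and -1.58. With JQ1, CDKN1A went from 1.08 to -0.16, a difference of -1.23. After ratio rescaling both times lay above DMSO for all 3, at 0.95 and 0.63 for CDKN1B, 1.02 and 0.38 for CDKN2C and 1.73 and 0.91 for CDKN1A, and none of the 3 differences was called.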

How the results depend on the processing

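Over 9 tested members and 12 comparisons, 108 of 108 results kept direction and call with no filter and with a fit of the compared groups only, as did 99 and 98 with pseudocounts of 0.1 and 0.01 and 97 with array weights, whose estimation stopped before converging. A mean of at least 5 FPKM leaves out CDKN1A. Replicate numbers did not pair libraries: same-numbered libraries deviated with r between -0.238 and 0.193, and with the replicate block 107 of 108 were as before and CCND3 passed the minimum between the drugs at 24 h (1.015). Ratio rescaling turned the sign of 18 results with no call on either scale. Among them were CDKN2D with imatinib at 6 h (0.261) and CDKN1B (0.454), CDKN2C (0.642) and CDKN2D (0.821) with JQ1 at 6 h. CDKN1A with JQ1 at 24 h (0.908) and with both (0.501) also belonged to them. It further turned 8 changes against DMSO that were called on at least 1 scale, of which CDKN2D with JQ1 was no call on the deposited scale. They were CDKN1B (imatinib 24 h 0.629, JQ1 24 h 0.562, both 0.495), CDKN2C (0.384, 0.652, 0.404) and CDKN2D (JQ1 24 h 1.184, both 1.067). Total rescaling without MIR1244 gave 0.704, 0.451 and 0.349, 0.459, 0.542 and 0.259, and 1.113 and 0.962 for the same. Total rescaling gave 1.077, 0.663 and 0.621 for CDKN1B, 0.83, 0.753 and 0.53 for CDKN2C, and 1.303 and 1.208 for CDKN2D. It turned the sign of further changes that were called on at least 1 scale. They were CCND2 (0.081) and CDKN2D (0.084) with imatinib at 24 h, CDKN1A with JQ1 at 24 h (1.04), and CCND1 (1.246), CDKN1B (0.137) and CDKN1C (1.151) between imatinib times. The interaction of CCND1 (-0.284), CDK4 (-0.085), CDKN1B (-1.119) and CDKN2C (-1.053) turned too. Another 16 results turned with no call on either scale. Of those named, CDKN1A with JQ1, CCND1 and CDKN1C between imatinib times, and the interactions of CDKN1B and CDKN2C also turned with ratio rescaling, with no call. Counts of lower members with ratio rescaling, total rescaling and total rescaling without MIR1244, in that order, were 0, 0 and 0 with JQ1 at 6 h, 1, 1 and 1 with imatinib at 24 h, 1, 1 and 1 with JQ1 at 24 h, 1, 1 and 2 with both, 0, 0 and 0 for both against JQ1 and for imatinib 24 h against 6 h, and 1, 1 and 1 for JQ1 24 h against 6 h; imatinib at 6 h had 1 with ratio rescaling, and the interaction 3 with total rescaling. Counts of higher members in the same order were 2, 3 and 2 with JQ1 at 24 h, 3, 3 and 2 for both against imatinib, 1, 1 and 1 for JQ1 24 h against 6 h and 1, 0 and 1 for the interaction; with ratio and total rescaling they were 2 and 2 with imatinib at 6 h and with both, with ratio rescaling 2 for JQ1 against imatinib at 6 h, and with total rescaling 2 with imatinib at 24 h and 2 between imatinib times. Over the 12 comparisons, 0.846% to 15.3% of all genes were lower and 0.266% to 20.0% higher with total rescaling, and 0.9% to 13.5% and 0.227% to 10.8% without MIR1244. With no fold minimum, lower members numbered 6 with imatinib at 6 h (80.5% of all genes), 5 and 7 for both against imatinib and JQ1 (61.8% and 73.4%), 2 for JQ1 against imatinib at 6 h (40.3%) and 6 for JQ1 24 h against 6 h (55.2%), and higher members 3 for both against imatinib (2.43%), 3 and 4 for JQ1 against imatinib at 6 h and 24 h (7.11% and 18.1%) and 1 for JQ1 24 h against 6 h (5.2%). Array weights gave 1 higher member with JQ1 at 6 h (0.838%), and 3 and 5 lower for both against imatinib and JQ1 (23.3% and 18.1%). Pseudocounts of 0.1 and 0.01 gave 2 and 3 lower for both against JQ1 (14.8% and 17.7%), 1 and 1 higher for both against imatinib (0.807% and 1.03%) and 1 and 1 for JQ1 24 h against 6 h (1.46% and 1.64%). A mean of at least 5 FPKM gave 1 higher member with JQ1 at 6 h (0.487%), and 0 and 1 for JQ1 against imatinib at 6 h and 24 h (1.81% and 4.62%). Leaving out each library gave 1 to 2 higher members with JQ1 at 6 h, and 1 to 3 and 0 to 4 lower for both against imatinib and JQ1. The shares of all genes called in these reduced fits are not given, so these counts cannot be set against a background. The cause was not tested. Depth is unknown, so no counting error is given, and values of CDK6 and CDKN1A near the filter rest on 3 libraries a group.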

Other observations

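Over the 18 libraries after ratio rescaling, and among 9000 genes with a mean of at least 5 FPKM, the genes whose log2 levels ran most like those of CCND1 were STIM1 (Pearson r = 0.981), TAP1 (0.975) and RGS7BP (0.965). Those most like CDKN1B were MED4 (0.9155), THAP3 (0.911) and DEDD2 (0.906). These are descriptions over libraries that share groups and scaling.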
